A study of Mus musculus with 16 samples.

Results

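The large bowel and the liver were compared in 7 of the 16 bulk RNA-seq libraries of the series: all 4 colorectum and all 3 liver libraries whose labels name them as controls. They were taken by label alone. Every mouse carried the Min allele of Apc (APCMin/+), and per the series' design text the mice were male and 8 weeks old. All 7 libraries come from mice that drank water with 0.0127 mg/ml of Neu5Gc (N-glycolylneuraminic acid, a sialic acid) for 14 days, so both tissues share genotype and exposure and no value below is an effect of Neu5Gc. The other 9 libraries (6 colorectum, 3 liver) come from mice given 0.2535 mg/ml for 14 days and serve here only as a second set in which the same tissue comparison was repeated. The sample labels followed here disagree with the design text, which counts 6 control and 4 treated mice; were the colorectum names exchanged, dose and tissue would be mixed in this comparison. The labels do not say whether 1 mouse gave both tissues, which stretch of the large bowel was taken, or whether the pieces held adenoma, and nothing says that the libraries of a tissue came from separate mice, so p-values measure the spread between these libraries.

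The colorectum is lined by columnar epithelium made of absorptive colonocytes, mucus-secreting goblet cells and rarer hormone-releasing and tuft cells, all renewed from dividing stem cells in crypts, above a wall of smooth muscle, connective tissue and enteric nerves. The liver is built mostly of hepatocytes, which secrete the proteins of blood plasma, make bile acids and urea, store and release glucose, and clear drugs, with sinusoidal endothelium, resident macrophages (Kupffer cells) and stellate cells between them. Both organs arise from the gut tube and share several transcription factors.

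Albumin (Alb), the main protein of plasma and the marker named for liver, stood at 41765, 39551 and 35522 TPM (a level per transcript length, scaled to the same total in every library) in liver libraries 1 to 3. In colorectum libraries 1 to 4 it stood at 41.7, 29.4, 21.5 and 463 TPM. Muc2, the gel-forming mucin of goblet cells and the marker named for colorectum, stood at 1094, 885, 1377 and 541 TPM in the colorectum and at 0.00573, 0.0138 and 0.00864 TPM in the liver. Both markers separated all 7 libraries in the labelled direction. Total estimated counts were 48.3 to 73.9 in the colorectum and 47.5 to 55.9 in the liver, in units of 1e6. Across 2 colorectum libraries the Pearson correlation of log2 counts over genes was 0.907 to 0.992, across 2 liver libraries 0.983 to 0.993, and between tissues 0.654 to 0.743.

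Of the 7 libraries, 3 held high levels of genes of another organ. In colorectum library 4 the summed level of 16 kidney tubule genes was 20099 TPM, against 2.13 to 36.2 TPM in the other colorectum libraries and at most 7.6 TPM in the liver, with Kap, an androgen-regulated kidney protein, at 26.8, 0, 2.38 and 15867 TPM in colorectum libraries 1 to 4. The same library held 7008 TPM of red cell genes, where the other colorectum libraries held 490.3 to 754.3 TPM. In colorectum library 3 the summed level of pancreatic acinar genes was 7452 TPM against 606.1 to 682.7 TPM, and 23.8% of its TPM lay in mRNAs encoded by mitochondrial DNA against 8.67 to 11.2%. In liver library 1 the acinar genes summed to 14108 TPM, against 88.2 and 95.6 TPM in the other liver libraries. Values without these libraries stand beside some of the results that they move. Other results given without such a value can move as well.

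**Figure D1:**
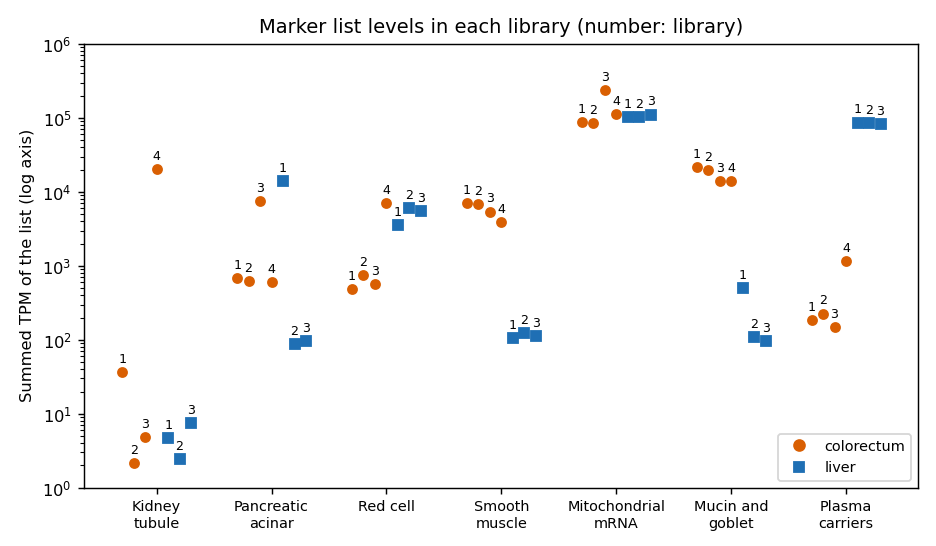
Summed TPM (log axis) of 7 marker lists in each of the 7 libraries, circles for colorectum and squares for liver, with the library number beside the symbol. Kidney genes stand at 20099 TPM in colorectum library 4, acinar genes at 14108 TPM in liver library 1 and 7452 TPM in colorectum library 3, while the goblet and plasma carrier lists part the tissues.

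Expression differed between the tissues for most genes. Of 17861 genes tested with edgeR's quasi-likelihood test, 11195 (62.7%) passed at an adjusted p of 0.05, 6033 (33.8%) higher in the colorectum and 5162 (28.9%) higher in the liver. Counting only those with a fitted difference of at least 4-fold, 3406 genes (19.1%) were higher in the colorectum and 1598 (8.95%) in the liver; at 16-fold these were 1607 (9%) and 725 (4.06%). Log2 fold changes below are colorectum minus liver, so a positive value means a higher level in the colorectum. The word "passed" means an adjusted p under 0.05. For every gene list below, counts at 4-fold are to be read against these 19.1% and 8.95% of all genes tested.

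These directions depend on how the tissues are put on 1 scale. The main scaling (TMM) centres the bulk of genes, and the median log2 fold change over all genes was 0.08. Scaling by library totals, as TPM does, moved the median of all genes up by 1.25, and the split of the genes that passed became 12542 higher in the colorectum and 1613 in the liver. In TPM every colorectum library lay above every liver library for 70.4% of the genes tested and below for 9.42%. On the TMM scale a gene at equal TPM in both tissues has a log2 fold change near -1.25. Library totals move every gene by about the same amount, so that 2511 of the 3564 differences toward liver under 4-fold changed sign and none of at least 4-fold could, by construction. On log2(TPM + 0.1) 3 of the 1475 genes at least 4-fold higher in the liver that had a value changed sign. Statements of direction below use the 4-fold criterion, which exceeds this shift, and smaller differences are given with their TPM. Without colorectum libraries 3 and 4 the 4-fold counts were 3561 and 1880, and without liver library 1 as well they were 3568 and 1844.

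**Figure D2:**
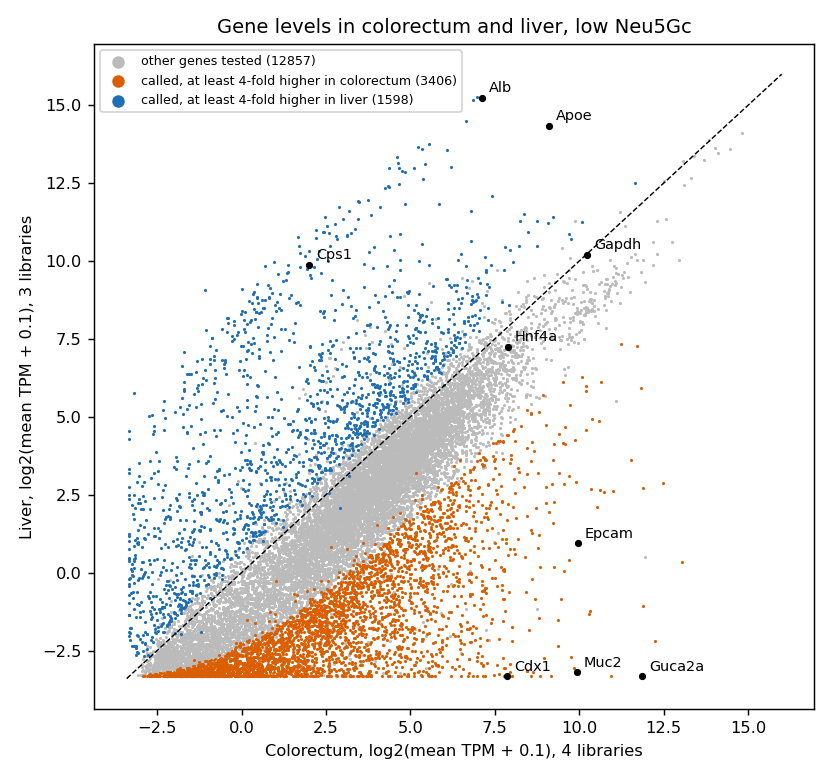
Mean level of each tested gene in the 4 colorectum libraries (horizontal) and the 3 liver libraries (vertical), as log2(TPM + 0.1). Orange points are the 3406 genes called and at least 4-fold higher in the colorectum, blue points the 1598 genes at least 4-fold higher in the liver, grey points all others, and the dashed line marks equal TPM; most grey points lie on the colorectum side of that line.

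The liver transcriptome was concentrated in fewer genes. In liver libraries 1 to 3 the 47, 58 and 57 most abundant genes held 50% of all TPM, and in colorectum libraries 1 to 4 it took 248, 242, 119 and 227 genes. The low value in the colorectum is library 3, the one rich in mitochondrial mRNA. Without mitochondrially encoded genes the numbers were 319 to 330 genes in the colorectum and 56 to 76 in the liver. Only genes with a mitochondrial symbol (mt-) were dropped. Gm29216 then led colorectum libraries 1, 2 and 4 (1.79, 2.12 and 2.61% of TPM) and Gm28661 led library 3 (5.41%). Whether these 2 genes share reads with mitochondrial genes was not tested. The 100 most abundant genes held 36.1 to 48.1% of TPM in the colorectum and 57.2 to 59.8% in the liver. Genes at 1 TPM or more numbered 14420 to 14825 in the colorectum and 11460 to 11821 in the liver. For these 3 measures the tissues did not overlap, and the two-sided exact permutation p was 0.0571, the smallest that 4 against 3 libraries allow. The share of the 10 most abundant genes overlapped when mitochondrial genes were kept (11.8 to 25.3% against 22.9 to 24.7%, exact permutation p = 0.229).

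**Figure D3:**
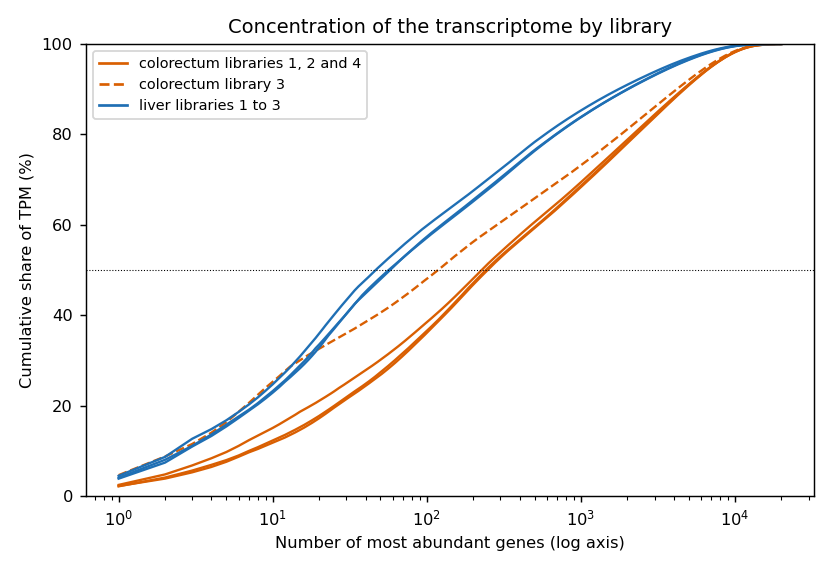
Cumulative share of TPM (percent, vertical) held by the most abundant genes (number of genes, horizontal, log axis), 1 line per library, orange for the 4 colorectum and blue for the 3 liver libraries. The liver lines reach 50% at 47 to 58 genes and the colorectum lines at 119 to 248 genes.

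Predicted and unnamed genes were left out of the next ranking. Among the other genes at least 16-fold higher in the liver, the 15 most abundant were major urinary proteins, apolipoproteins, serpins and plasma carriers. Mup22, Mup7, Mup14, Mup3, Mup19 and Mup11 code for major urinary proteins, pheromone carriers that the male mouse liver secretes. Mup22 averaged 39818 ± 1099 TPM (SD, n = 3) and Mup7 37088 ± 7222 TPM (SD, n = 3) in the liver, against 125 ± 203 TPM (SD, n = 4) and 116 ± 198 TPM (SD, n = 4) in the colorectum. The Mup genes and the serpins Serpina1c and Serpina1e share near-identical sequence, so the division of reads within each family is uncertain. Apoa2, Apoe, Apoc1 and Apoa1, protein components of lipoproteins, averaged 23344, 20790.0, 12063 and 8830.1 TPM in the liver. Apoe was the one of these with a sizeable level in every colorectum library, at 569.8, 745, 120.5 and 762 TPM in libraries 1 to 4 (log2 fold change -6.36, SE 0.68, adjusted p = 0.00011). The others were Alb (log2 fold change -9.42, SE 1.52, adjusted p = 0.00096), Trf, the iron carrier transferrin (log2 fold change -8.38, SE 0.73, adjusted p = 3.5e-05), and the protease inhibitor Serpina3k (log2 fold change -9.89, SE 1.37, adjusted p = 0.00043).

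Plasma protein lists lay on the liver side almost without exception. All 18 tested plasma carrier genes and all 16 protease inhibitors were at least 4-fold higher in the liver, as were 18 of 19 coagulation factors and 16 of 17 apolipoprotein and lipoprotein assembly genes, where the background was 8.95% of all tested genes. Their median log2 fold changes were -9.12, -9.3, -9.01 and -8.3, against 0.08 for all genes. Ahsg (fetuin-A, an inhibitor of mineral deposition) stood at 7485, 7819 and 7066 TPM in the liver and 7.71, 9.18, 3.17 and 94.7 TPM in the colorectum, where library 4 lay far above the others. Fga, Fgb and Fgg, the 3 chains of fibrinogen, averaged 3823, 1896 and 3862 TPM in the liver, with log2 fold changes of -9.72, -9.62 and -9.73. F13b, the carrier subunit of clotting factor XIII, was the coagulation gene that did not pass, at 0.136, 0.104, 0 and 23.6 TPM in the colorectum and 105, 125 and 123 TPM in the liver. With colorectum library 4 left out it passed (log2 fold change -11.9, adjusted p = 1.15e-05). Of 24 complement genes 22 were at least 4-fold higher in the liver, led by C3, the central component, at 1623, 1934 and 1837 TPM against 11.8, 22.9, 26.7 and 22.8 TPM. Cfd (factor D, secreted mainly by fat cells) went the other way (log2 fold change 3.39, SE 1.18, adjusted p = 0.043), at 42.1, 187, 8.11 and 42.7 TPM in the colorectum and 3.92, 3.32 and 0.626 TPM in the liver. Its call was lost in 5 of the 7 fits that left out 1 library each, those without colorectum library 1 or 2 or any liver library, with adjusted p up to 0.108. Of 18 hepatokines and liver hormones 17 were at least 4-fold higher in the liver, among them the iron hormone Hamp (log2 fold change -10.19, SE 0.88, adjusted p = 6.8e-05) and Igf1, insulin-like growth factor 1 (log2 fold change -6.61, SE 0.35, adjusted p = 3.4e-06).

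The size of these differences rested partly on colorectum library 4. The plasma carrier genes summed to 185, 227 and 150 TPM in colorectum libraries 1 to 3 and to 1160 TPM in library 4; in the liver the sum was 83618 to 86724 TPM. Library 4 is also the library with kidney and red cell genes, and their part in its plasma protein level was not tested. Without colorectum libraries 3 and 4 the log2 fold change of Alb was -11.45 in place of -9.42. It was -12.25 in the high Neu5Gc libraries.

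Hepatic drug metabolism, nitrogen disposal and bile acid synthesis were likewise liver-sided. Of 32 cytochrome P450 genes of families 1 to 4, the oxidases of drugs, steroids and fatty acids, 19 were at least 4-fold higher in the liver. Cyp2e1, which oxidizes ethanol, stood at 2901, 3084 and 3422 TPM in the liver and at 6.08, 27.6, 5.76 and 407 TPM in colorectum libraries 1 to 4, again with library 4 apart. Cyp3a11, the main drug-oxidizing form of mouse liver, stood at 1211, 1639.7 and 1446 TPM and 1.28, 0.983, 0.456 and 10 TPM (log2 fold change -10.09, SE 1.39, adjusted p = 0.0005). The large bowel had its own P450 genes: Cyp2c55, Cyp2c65, Cyp2c66, Cyp2s1 and Cyp4f16 were at least 4-fold higher there. Cyp2c55, an arachidonic acid-oxidizing form, stood at 1109, 1292, 504 and 903 TPM in the colorectum and 5.85, 8.50 and 7.67 TPM in the liver (log2 fold change 5.69, SE 0.37, adjusted p = 8.0e-06). Of 28 conjugating enzymes 15 were at least 4-fold higher in the liver and 3 in the colorectum, namely Ugt1a7c, a glucuronosyltransferase (log2 fold change 6.28, SE 0.27, adjusted p = 1.4e-06), the sulfotransferase Sult1c2 (log2 fold change 2.99, SE 0.16, adjusted p = 3.3e-06) and the glutathione transferase Gsta1.

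All 8 urea cycle genes were at least 4-fold higher in the liver. Cps1, the entry enzyme of the cycle, stood at 816, 1094 and 929 TPM against 3.38, 2.96, 1.81 and 7.45 TPM (log2 fold change -9.25, SE 0.64, adjusted p = 1.1e-05). Ass1, the argininosuccinate synthase that the kidney also expresses, stood at 1362, 1607 and 1259 TPM in the liver and at 38.8, 39.7, 23.4 and 789.8 TPM in colorectum libraries 1 to 4 (log2 fold change -3.93, SE 1.38, adjusted p = 0.041). Its call was lost in 6 of the 7 fits that left out 1 library each (adjusted p up to 0.0839); without colorectum library 4 its log2 fold change was -6.73 (adjusted p = 8.58e-07). Of 25 amino acid catabolism genes 22 were at least 4-fold higher in the liver, led by the methionine cycle enzymes Bhmt (log2 fold change -9.87, SE 1.39, adjusted p = 0.00054) and Gnmt (log2 fold change -8.94, SE 1.49, adjusted p = 0.0016). Of 16 bile acid genes 14 were, including Cyp7a1, the rate-limiting enzyme of bile acid synthesis, at 20.7, 20.3 and 24.8 TPM against 0.0247, 0.0439, 0 and 0.186 TPM, and Abcb11, the bile salt export pump (log2 fold change -10.59, SE 1.43, adjusted p = 0.00058).

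In the glucose production list, 1 library decided 3 of the calls. Of 14 gluconeogenesis and glycogen genes 11 were at least 4-fold higher in the liver and Fbp1, G6pc and Slc2a2 did not pass. Fbp1, fructose-bisphosphatase, stood at 655, 754 and 708 TPM in the liver and 4.84, 4.94, 1.81 and 356 TPM in colorectum libraries 1 to 4 (log2 fold change -4.22, SE 1.98, adjusted p = 0.11). G6pc, the glucose-6-phosphatase that releases glucose to blood, stood at 335, 143 and 232 TPM and 0.267, 0.0453, 0.0401 and 55.5 TPM (log2 fold change -5.38, SE 2.67, adjusted p = 0.13). Colorectum libraries 1 to 3 lay far below every liver library for both genes, and library 4, the one with kidney genes, lay between. Without library 4 all 3 genes passed, with log2 fold changes of -8.9 for Fbp1 (adjusted p = 2.23e-06), -12.3 for G6pc (2.26e-05) and -9.82 for the glucose transporter Slc2a2 (1.45e-07), and in the high Neu5Gc libraries the first 2 were -9.19 and -10.36. Kidney tubule cells also express both genes; the part of the kidney genes of library 4 in its level was not tested.

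Fat metabolism divided less sharply. Of 19 fatty acid oxidation and ketogenesis genes 7 were at least 4-fold higher in the liver and none in the colorectum. Of 22 lipogenesis and cholesterol genes 5 were at least 4-fold higher in the liver and 1 in the colorectum. The background for both lists was 8.95% toward the liver and 19.1% toward the colorectum. The stearoyl-CoA desaturases parted the tissues, with Scd1 at 761, 1029 and 1358 TPM in the liver and 18.4, 33.6, 21.1 and 29.1 TPM in the colorectum (log2 fold change -6.73, SE 0.39, adjusted p = 5.0e-06), and Scd2 at 1.49, 1.48 and 1.87 TPM and 149.8, 155, 229 and 104 TPM (log2 fold change 5.30, SE 0.35, adjusted p = 9.3e-06).

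On the bowel side, goblet cell and barrier genes stood far above the liver. Of 18 mucin and goblet cell genes 17 were at least 4-fold higher in the colorectum (background 19.1%), with a median log2 fold change of 8.91. Their summed level was 13838 to 21883 TPM in the colorectum and 95.2 to 499 TPM in the liver. Spink4, a goblet cell protein of the Kazal family, stood at 5285, 3979.8, 2680.3 and 3400.2 TPM (log2 fold change 8.16, SE 0.5, adjusted p = 6.1e-06). Agr2, a disulfide isomerase needed for mucin folding, stood at 5326, 4216, 3302 and 2372 TPM in the colorectum and 0.948, 0.0823 and 0.0941 TPM in the liver (log2 fold change 11.91, SE 1.27, adjusted p = 0.00013). Muc2 had log2 fold change 15.32, SE 0.77, adjusted p = 2.6e-06. Zg16, a lectin of the mucus layer that pancreatic acinar cells also make, stood at 3913, 4502, 2222 and 2753 TPM in the colorectum and at 411, 30.9 and 19.7 TPM in liver libraries 1 to 3 (log2 fold change 4.15, SE 1.24, adjusted p = 0.023). Liver library 1, the one with acinar genes, was the high one; without it and colorectum libraries 3 and 4 the log2 fold change of Zg16 was 7.24. The gene factors that link counts to TPM differ between the tables of the tissues for Zg16, and with 1 common factor its log2 fold change was 2.99 and the call was lost (adjusted p = 0.059). It was also lost without colorectum libraries 3 and 4 (4.48, adjusted p = 0.117). The common factor also moved the log2 fold changes of Igf1 (to -7.58), Trpm5 (to 2.47), Gata4 (to -4.82) and St3gal5 (to -4.95), named elsewhere in the text, by over 1.5-fold, and these calls held.

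Of 17 antimicrobial and barrier genes 15 were at least 4-fold higher in the colorectum. Lypd8, which keeps flagellated bacteria from the epithelium, stood at 5724, 5952, 3939 and 3969 TPM in the colorectum and at 0, 0.358 and 0 TPM in the liver. Retnlb, a bactericidal protein of goblet cells, stood at 1191, 452, 211 and 438 TPM in the colorectum and was listed at 0 in all 3 liver libraries, which makes it at least 1550-fold higher against a floor of 3 counts per library. Lcn2, the iron-scavenging lipocalin that hepatocytes secrete in the acute phase, went the other way, at 14.9, 37.3 and 40.4 TPM in the liver and 3.04, 4.33, 3.45 and 4.79 TPM in the colorectum (log2 fold change -4.22, SE 0.34, adjusted p = 2.5e-05). In the high Neu5Gc libraries its log2 fold change was -0.61. Pigr, the receptor that carries immunoglobulin A across epithelia and, in mice, into bile, did not pass, at 1091, 992, 1671 and 774 TPM and 401, 452 and 403 TPM (log2 fold change 0.11, SE 0.33, adjusted p = 0.79).

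Of 21 absorptive colonocyte genes 16 were at least 4-fold higher in the colorectum. Car1, a carbonic anhydrase of colonocytes, stood at 7442, 8243, 1966 and 5185 TPM against 9.50, 6.38 and 6.09 TPM (log2 fold change 8.32, SE 0.67, adjusted p = 2.5e-05). Guca2a, the hormone guanylin, stood at 4917, 4703, 1928 and 3349 TPM and was listed at 0 in every liver library, a difference of at least 7880-fold. Ceacam1, an adhesion protein of both epithelia, stood at 1168, 1275, 1079 and 859 TPM and 68.7, 83.8 and 80.3 TPM (log2 fold change 2.62, SE 0.23, adjusted p = 3.9e-05). The water channel Aqp8, which hepatocytes also carry, overlapped, at 133, 85.5, 99.7 and 69.1 TPM in the colorectum and 93.7, 147 and 132 TPM in the liver (log2 fold change -1.70, SE 0.22, adjusted p = 0.00031), and in the high Neu5Gc libraries its log2 fold change had the opposite sign (1.55).

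**Figure D4:**
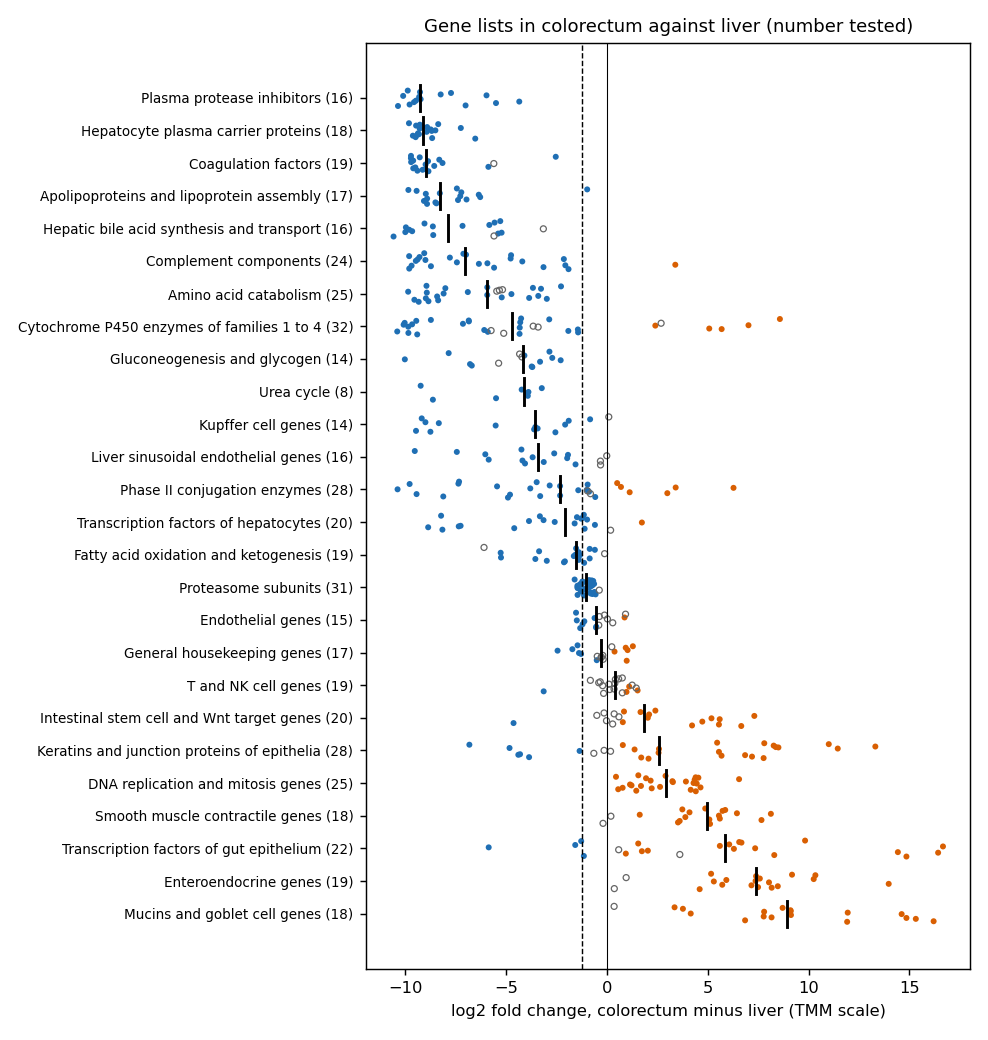
Log2 fold change, colorectum minus liver, of every tested member of 26 gene lists (1 point per gene, 1 row per list, bar at the median); filled points passed at an adjusted p of 0.05. The dashed line at -1.25 marks about equal TPM. The plasma protein lists have medians from -9.3 to -7.06, the goblet list 8.91, and the proteasome, housekeeping and endothelial lists lie around the dashed line or between it and 0.

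The 15 most abundant genes at least 16-fold higher in the colorectum were ranked without predicted and unnamed genes. Among those left out was 1810065E05Rik, at 1962 TPM in the colorectum and 0 TPM in the liver on average. Other genes of the 15 were Sprr2a2, Lgals4, Lgals3, S100a6, Crip1, Krt19, Gpx3, Igkc and Igha. Sprr2a2, a small proline-rich epithelial protein, was the most abundant at 8539.7 ± 2894 TPM (SD, n = 4) against 1.17 ± 0.271 TPM (SD, n = 3) in the liver. The galectins Lgals4 and Lgals3, lectins for galactosides, averaged 2959.8 ± 552 TPM (SD, n = 4) and 1316 ± 324 TPM (SD, n = 4) in the colorectum. Gpx3, the plasma glutathione peroxidase made mainly in kidney tubules, met the rule through library 4 alone, at 119, 106, 85.7 and 6535 TPM in colorectum libraries 1 to 4 and 5.73, 4.29 and 7.69 TPM in the liver (log2 fold change 6.93, SE 2.29, adjusted p = 0.036). Its call was lost without any 1 of the 3 liver libraries (adjusted p up to 0.104), and without colorectum libraries 3 and 4 its log2 fold change was 2.92.

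Position along the bowel was read from 3 lists. Of 12 genes of the proximal large bowel 10 were at least 4-fold higher in the colorectum, and of 10 tested genes of the distal large bowel 6 were. The summed level of the distal list was 30.4, 33.8 and 30.6 TPM in colorectum libraries 1, 2 and 4 and 127 TPM in library 3, while the proximal list was lowest there (2938 TPM against 6989 to 10786 TPM). Hoxb13, the most posterior HOX gene of its cluster, stood at 2.19, 4.10, 35.6 and 6.21 TPM in colorectum libraries 1 to 4 and was listed at 0 in the liver (at least 152-fold). Of 18 tested small intestinal enterocyte genes 10 were at least 4-fold higher in the colorectum and Apoa4, Dpp4 and Anpep at least 4-fold higher in the liver, where they serve lipoproteins and bile canaliculi. Only 4 of 11 Paneth cell genes in the tables passed the count filter. Ang4, an angiogenin that goblet cells of the mouse colon also make, was the one with a high level, at 507, 311, 328 and 376 TPM and 0 in the liver.

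Dividing cells and crypts marked the colorectum. All 25 DNA replication and mitosis genes passed and were higher in the colorectum, 16 of them by at least 4-fold. Plk1, a mitotic kinase, stood at 95.3, 86.03, 48.7 and 53.2 TPM against 0.325, 0.305 and 0.32 TPM (log2 fold change 6.55, SE 0.29, adjusted p = 1.7e-06). Mki67, the marker of cycling cells, stood at 15.4, 13.1, 33.7 and 8.35 TPM against 0.351, 0.381 and 0.366 TPM (log2 fold change 4.29, SE 0.55, adjusted p = 0.00034). Of 20 stem cell and Wnt target genes 10 were at least 4-fold higher in the colorectum, led by Prom1 (log2 fold change 5.59, SE 0.32, adjusted p = 4.4e-06) and the water channel Aqp4 (log2 fold change 6.66, SE 0.92, adjusted p = 0.00061), which stood at 67.3, 52.4, 236 and 37.4 TPM and was highest in library 3. Ascl2, the transcription factor of crypt stem cells, stood at 7.22, 8.16, 4.01 and 5.26 TPM and, with 2 counts over the 3 liver libraries, 0.0362, 0 and 0 TPM. Lgr5, the stem cell receptor for R-spondins that pericentral hepatocytes also carry, did not pass, at 3.77, 5.60, 6.21 and 3.29 TPM and 1.89, 2.91 and 1.26 TPM. Notum, a secreted Wnt inhibitor, was higher in the liver (log2 fold change -4.64, SE 1.46, adjusted p = 0.032), a call lost in 5 of the 7 fits that left out 1 library each (colorectum 2 or 3, or any liver library; adjusted p up to 0.0707). Of 16 genes of the Apc destruction complex and TCF factors 8 passed as higher in the colorectum and 1 as higher in the liver (background 33.8% and 28.9%). Of these 1, the factor Lef1, was at least 4-fold higher in the colorectum. The median log2 ratio in TPM was 1.70. Apc itself, the gene with the Min allele in every mouse, stood at 9.81, 13.1, 14.7 and 11.1 TPM in the colorectum and 3.22, 4.64 and 3.56 TPM in the liver (log2 fold change 0.39, SE 0.20, adjusted p = 0.12). It passed without colorectum library 1 (0.52, adjusted p = 0.0439). Gene counts do not separate the 2 alleles.

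Rarer epithelial cells were seen in the colorectum. Of 19 tested enteroendocrine genes 17 were at least 4-fold higher there and none in the liver. The hormones Pyy and Gcg (peptide YY and proglucagon) stood at 160.1, 240.0, 375 and 189 and 147, 165, 146 and 107 TPM in colorectum libraries 1 to 4. In the liver Pyy and Gcg had values above 0 in library 1 only, 1.63, 0 and 0 and 0.84, 0 and 0 TPM, the library with pancreatic acinar genes, whose part in this was not tested. Insl5, a relaxin-family hormone of distal L cells, stood at 51.7, 62.7, 299 and 47.7 TPM and was highest in library 3. Of 13 tuft cell genes 9 were at least 4-fold higher in the colorectum, among them the tuft cell regulator Pou2f3 (log2 fold change 4.26, SE 0.5, adjusted p = 0.00017) and the taste channel Trpm5 (log2 fold change 3.69, SE 0.29, adjusted p = 2.0e-05; 2.47 with a common gene factor), at levels under 10 TPM. In bulk tissue, fewer cells of a type and less RNA per cell cannot be told apart.

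The transcription factors that specify each tissue parted cleanly for some and not for others. Of 22 gut epithelial factors 13 were at least 4-fold higher in the colorectum. Cdx1 and Cdx2, the caudal homeobox factors of intestinal identity, stood at 254, 256, 232 and 186 TPM and 159, 203, 99.7 and 129 TPM in colorectum libraries 1 to 4 and were listed at 0 in all 3 liver libraries, which makes them at least 2130-fold and 1810-fold higher. Gata4, a foregut factor, was the one that was at least 4-fold higher in the liver (log2 fold change -5.87, SE 0.32, adjusted p = 3.7e-06; -4.82 with a common gene factor), while its relative Gata6 was higher in the colorectum (log2 fold change 1.55, SE 0.22, adjusted p = 0.00044). Of 20 hepatocyte factors 10 were at least 4-fold higher in the liver. Creb3l3, a membrane-bound factor of fasting and lipid genes, stood at 168, 167 and 172 TPM against 2.95, 3.69, 0.839 and 3.83 TPM (log2 fold change -7.36, SE 0.53, adjusted p = 1.4e-05). Nr1i3, the xenobiotic receptor CAR, stood at 94.1, 109 and 68.8 TPM against 0.82, 0.888, 0.622 and 1.46 TPM (log2 fold change -8.17, SE 0.39, adjusted p = 2.2e-06). Prox1 (log2 fold change -4.60, SE 0.21, adjusted p = 1.8e-06) and Cebpa (log2 fold change -3.15, SE 0.21, adjusted p = 9.5e-06) were also higher in the liver. Hnf4a, a master factor of hepatocytes that intestinal epithelium also uses, was higher in TPM in every colorectum library (225, 263, 212 and 245) than in any liver library (141, 163 and 151); on the TMM scale its log2 fold change was -1.15, so its direction turned with the scaling. Its relative Hnf4g stood at 12.8 TPM on average in the colorectum and 0.106 TPM in the liver.

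Promoter sequence was compared as a feature that took no part in choosing the libraries. RefSeq promoters (GRCm38.p6, 250 bases before to 50 after the start, the first entry per symbol) matched 13037 of 17829 tested genes with a symbol of their own. Promoters of genes at least 4-fold higher in the liver had a median of 7 CpG in 300 bases (1094 promoters), against 14 for genes at least 4-fold higher in the colorectum (2330 promoters) and 20 for genes that did not pass and differed by less than 2-fold (4398 promoters). For genes at least 16-fold higher the medians were 4 on the liver side (474 promoters) and 11 on the colorectum side (1069 promoters). Of these liver promoters 42.6% held 3 or fewer CpG, of the colorectum promoters 18.0% and of the class under 2-fold 12.4%. Over all genes tested the median was 18 CpG, with 13.1% of promoters at 3 or fewer, and over all 27025 promoters of the table, tested or not, it was 7, with 31.9%. The 4-fold liver class thus lay below the tested genes and level with the whole table. Single genes depart from these medians. In the entry used, Fth1, which did not pass the test, held 4 CpG in 300 bases, and H2-Q10, at least 16-fold higher in the liver, held 19. Any other start of these genes was not read, so these numbers may not describe the start most used. The medians are illustrated by Alb (3 CpG in 300 bases) and Atp5b (18), a subunit of mitochondrial ATP synthase that did not pass the test. The 150 bases before the start of each are shown with each CpG in capitals.
Alb, chr5:90460720-90460869, plus strand: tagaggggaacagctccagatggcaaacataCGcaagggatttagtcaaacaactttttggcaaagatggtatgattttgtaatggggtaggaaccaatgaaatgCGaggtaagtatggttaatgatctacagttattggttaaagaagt
Atp5b, chr10:128083157-128083306, plus strand: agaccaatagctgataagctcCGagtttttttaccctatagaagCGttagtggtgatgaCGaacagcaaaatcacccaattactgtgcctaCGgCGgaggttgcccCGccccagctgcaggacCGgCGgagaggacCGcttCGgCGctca

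Spelled motifs of the factors named above were searched in the same promoters, on both strands unless stated; none of the 4 contains another. GTTAATNAT, a form of the HNF1 site, was found in 2.74% of the promoters at least 4-fold higher in the liver and in 4.85% of those at least 16-fold higher, in 0.64% and 1.12% on the colorectum side, and in 0.84% of all 27025 promoters; that of Alb is among them. CAAAGTCCA, a form of the HNF4 site, was found in 1.28% and 2.11% on the liver side, in 0.47% and 0.84% on the colorectum side and in 0.48% of all. GCAATAAA, a form of the CDX site, was found in 0.73% of the promoters at least 4-fold higher in either tissue and in 0.98% of all; at 16-fold these were 0.63% in the liver and 1.31% in the colorectum. TATAAA on the sense strand between 40 and 20 bases before the start was found in 4.11% and 5.27% on the liver side, 3.09% and 4.4% on the colorectum side, 0.98% of the class under 2-fold and 2.13% of all. Over the promoters of all genes tested the shares were 0.69% for HNF1, 0.48% for HNF4, 0.6% for CDX and 1.77% for TATAAA. For CDX the 4-fold classes thus lay above the tested genes and below the whole table. These are counts of letters, with no test, and most promoters of each class held none of the motifs. An abundant gene of a 16-fold class that holds each motif is shown over the 150 bases before its start, with the motif in capitals: Gc, the vitamin D carrier (3949 TPM in the liver), for HNF1, Cyp3a11 for HNF4, Adgrg7, an adhesion receptor (118.8 TPM in the colorectum), for CDX, and Fabp1, the liver fatty acid binding protein (8045 TPM in the liver), for TATAAA.
Gc, chr5:89457899-89458048, minus strand: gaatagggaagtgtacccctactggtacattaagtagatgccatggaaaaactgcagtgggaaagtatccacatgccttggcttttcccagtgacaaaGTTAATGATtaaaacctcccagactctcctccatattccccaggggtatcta
Cyp3a11, chr5:145879855-145880004, minus strand: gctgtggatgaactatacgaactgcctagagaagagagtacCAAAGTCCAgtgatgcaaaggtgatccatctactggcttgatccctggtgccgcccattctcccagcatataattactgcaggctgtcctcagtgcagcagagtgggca
Adgrg7, chr16:56795859-56796008, minus strand: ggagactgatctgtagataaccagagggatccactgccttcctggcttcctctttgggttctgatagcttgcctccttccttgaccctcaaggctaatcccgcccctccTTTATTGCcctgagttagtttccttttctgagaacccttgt
Fabp1, chr6:71199729-71199878, plus strand: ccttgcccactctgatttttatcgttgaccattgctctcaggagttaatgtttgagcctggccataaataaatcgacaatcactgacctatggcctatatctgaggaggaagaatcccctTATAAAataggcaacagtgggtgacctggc

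Cell adhesion differed in kind. Of 28 keratin and junction genes 16 were at least 4-fold higher in the colorectum and 5 in the liver. Epcam, the epithelial adhesion molecule that mature hepatocytes lack, stood at 1100.2, 1139, 965 and 765 TPM against 1.70, 1.58 and 2.19 TPM (log2 fold change 7.77, SE 0.28, adjusted p = 9.6e-07). Krt19, a keratin of simple ducts and gut, stood at 1630.1, 1670.2, 1384 and 1213 TPM against 3.82, 4.39 and 4.49 TPM (log2 fold change 7.19, SE 0.24, adjusted p = 8.5e-07). Cdh17, the intestinal cadherin, stood at 187, 191, 251 and 134 TPM against 0.0259, 0.0278 and 0.0309 TPM (log2 fold change 11.45, SE 0.39, adjusted p = 8.5e-07). The 5 genes on the liver side were Cdh2 (N-cadherin), Cldn1, Cldn14 and the connexins Gjb1 and Gjb2. Gjb1, the main gap junction protein of hepatocytes, stood at 545, 603 and 613 TPM against 54.3, 50.02, 42.8 and 56.8 TPM (log2 fold change -4.84, SE 0.19, adjusted p = 1.1e-06).

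The wall of the bowel was visible in the same libraries. Of 18 smooth muscle genes 15 were at least 4-fold higher in the colorectum, where the list summed to 3944 to 6993 TPM against 105 to 123 TPM in the liver. Actg2, the enteric smooth muscle actin, stood at 1027, 1002, 763 and 509.8 TPM against 1.24, 1.31 and 1.14 TPM (log2 fold change 8.13, SE 0.34, adjusted p = 1.3e-06). Of 18 enteric neuron and glia genes 15 were at least 4-fold higher in the colorectum, among them Uchl1, a neuronal ubiquitin hydrolase (log2 fold change 7.80, SE 0.52, adjusted p = 9.5e-06), and the neuropeptide Vip (log2 fold change 7.99, SE 0.5, adjusted p = 7.0e-06). Of 19 fibroblast and matrix genes 9 were at least 4-fold higher in the colorectum and 2 in the liver (background 19.1% and 8.95%). The collagen Col3a1 led the former (log2 fold change 2.59, SE 0.32, adjusted p = 0.00022), and the latter were Col14a1 and Fn1. Fn1, fibronectin, which hepatocytes release into plasma, stood at 219, 294 and 266 TPM against 54, 49.6, 64.5 and 32.6 TPM (log2 fold change -3.97, SE 0.29, adjusted p = 1.5e-05). Endothelial genes common to most vessels did not part the tissues at this criterion, with 0 of 15 at least 4-fold different either way. Without that criterion 9 of them passed, 1 higher in the colorectum and 8 in the liver on the TMM scale. In TPM the median log2 ratio of the list was 0.77, toward the colorectum. Of the 8, Tie1 (9.31 against 5.43 TPM on average) and Erg (4.65 against 2.94 TPM) were higher in every colorectum library than in any liver library. The others of the 8 overlapped in TPM, so the direction toward the liver depended on the scaling. Pecam1, the pan-endothelial adhesion protein, stood at 27.4, 22.2, 24.9 and 24.7 TPM and 9.04, 10.3 and 9.49 TPM (log2 fold change 0.02, SE 0.12, adjusted p = 0.89).

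Cells particular to the liver sinusoid stood out beside that. Of 16 sinusoidal endothelial genes 10 and of 14 Kupffer cell genes 11 were at least 4-fold higher in the liver. Clec4g, a lectin of sinusoidal endothelium, stood at 76.98, 93.4 and 92.2 TPM against 0.145, 0.0988, 0 and 0.94 TPM (log2 fold change -9.54, SE 1.12, adjusted p = 0.00038). Clec4f, the lectin of mouse Kupffer cells, stood at 99.3, 95.1 and 120.0 TPM against 0.131, 0.0882, 0 and 1.47 TPM (log2 fold change -9.48, SE 1.71, adjusted p = 0.0032). Vsig4, a complement receptor of resident macrophages, stood at 34.2, 38.1 and 42.4 TPM against 0.19, 0.187, 0.11 and 0.412 TPM (log2 fold change -8.76, SE 0.40, adjusted p = 1.7e-06). Stellate cell genes went both ways: of 12 genes 7 passed as higher in the liver and 5 as higher in the colorectum. Their median log2 ratio in TPM was 0.28. At 4-fold 5 were higher in the liver, among them Reln (log2 fold change -2.97, SE 0.28, adjusted p = 5.8e-05) and Lrat, the retinol-storing enzyme (log2 fold change -2.19, SE 0.25, adjusted p = 0.00015). Des, which smooth muscle also makes, was the 1 at least 4-fold higher in the colorectum (log2 fold change 5.86, SE 0.32, adjusted p = 3.6e-06). Rgs5, Vipr1, Pdgfrb and Hand2 passed toward the colorectum by less than 4-fold. Rgs5, a pericyte regulator of G protein signalling, stood at 92.4, 89.2, 104 and 54.2 TPM against 10.1, 9.67 and 9.59 TPM.

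Among immune genes, those of antibody-secreting cells reached the 4-fold criterion in the colorectum. Of 11 immunoglobulin constant genes 5 were at least 4-fold higher in the colorectum (background 19.1%). Igha, the heavy chain of immunoglobulin A, stood at 3560.4, 2566, 673 and 1402 TPM in colorectum libraries 1 to 4 and 5.07, 4.62 and 8.63 TPM in the liver (log2 fold change 7.05, SE 0.68, adjusted p = 6.1e-05). Jchain, which joins its units, stood at 595, 435, 423 and 221 TPM against 2.69, 5.86 and 3.67 TPM (log2 fold change 5.30, SE 0.42, adjusted p = 2.2e-05). Igkc, the kappa light chain, stood at 5196, 4217, 2923 and 2316 TPM against 32.1, 106 and 45.6 TPM (log2 fold change 4.74, SE 0.5, adjusted p = 9.4e-05). Ighg2c was the constant gene at least 4-fold higher in the liver (log2 fold change -4.53, SE 0.65, adjusted p = 0.00057), and its log2 fold change was -0.22 in the high Neu5Gc libraries. Constant genes share sequence with each other, so their levels are uncertain. Ighm, the heavy chain of immunoglobulin M, missed the threshold (log2 fold change 0.21, SE 0.45, adjusted p = 0.7). Of 16 further B and plasma cell genes 5 were at least 4-fold higher in the colorectum (background 19.1%). Of these 16 genes 3 passed as higher in the liver on the TMM scale by less than 4-fold. Xbp1, a factor of secretory cells, stood at 223, 218, 306 and 169 TPM in the colorectum and 138, 135 and 202 TPM in the liver. The proteoglycan Sdc1 stood at 93.4, 99.3, 72.1 and 74.9 TPM and 89.1, 112 and 97.6 TPM. Derl3, of protein export from the endoplasmic reticulum, stood at 7.15, 6.38, 4.83 and 4.05 TPM and 5.12, 1.92 and 8.11 TPM. In TPM the directions of Xbp1 and Derl3 turned, and their calls were lost in 5 and 3 of the 7 fits that left out 1 library each (adjusted p up to 0.137 and 0.111). Of 19 T and NK cell genes 0 were at least 4-fold higher in the colorectum and 1 in the liver (background 19.1% and 8.95%). That 1 was the kinase gene Zap70 (log2 fold change -3.14, SE 0.24, adjusted p = 1.9e-05). Of 8 MHC class II genes 0 reached 4-fold. The invariant chain Cd74 stood at 428, 463, 452 and 325 TPM against 70.9, 103 and 114 TPM (log2 fold change 0.83, SE 0.19, adjusted p = 0.006).

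Isozymes showed the difference within 1 reaction. For 20 pairs of related genes, a liver form and an alternative form, the ratio of the forms was computed in each library on TPM + 0.1. In 14 pairs the liver form was above its partner in every liver library and below it in every colorectum library, and in 19 pairs the ratios of the tissues did not overlap, the exception being St6gal1 to St6galnac1. Pyruvate kinase was read mostly from Pklr in the liver (159 TPM, with Pkm at 18.0 TPM) and mostly from Pkm in the colorectum (388 TPM, with Pklr at 78.2 TPM). The methionine adenosyltransferases Mat1a and Mat2a averaged 796 and 40.7 TPM in the liver and 2.51 and 188.7 TPM in the colorectum.

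**Figure D5:**
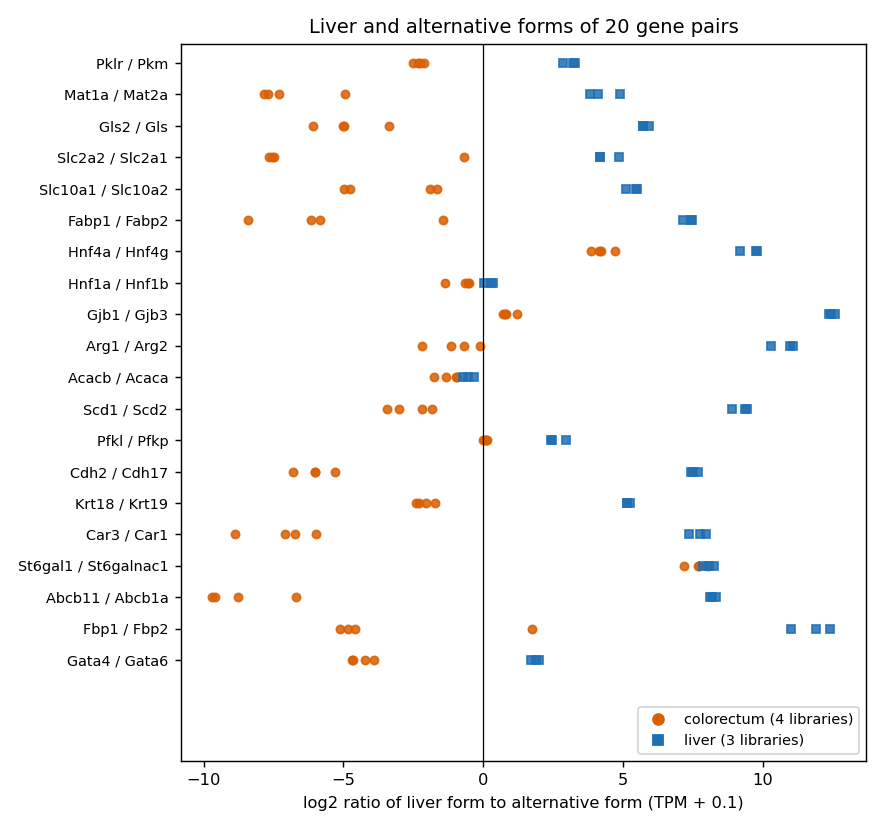
Log2 ratio of the liver form to the alternative form (TPM + 0.1) for 20 gene pairs, 1 row per pair, with orange circles for the 4 colorectum and blue squares for the 3 liver libraries. In 14 rows all blue squares lie right of 0 and all orange circles left of it; for Slc2a2 and Fbp1 the rightmost orange circle is library 4.

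Genes of sialic acid metabolism bear on the exposure that all 7 libraries share. Cmah, the hydroxylase that turns Neu5Ac into Neu5Gc and that humans lack, stood at 27.1, 40.5 and 34.1 TPM in the liver and 8.98, 9.35, 13 and 8.42 TPM in the colorectum (log2 fold change -3.01, SE 0.23, adjusted p = 1.8e-05), with no overlap of the groups. Of the other 8 tested genes of sialic acid synthesis and activation, Nans, the Neu5Ac synthase, at 242, 216, 563 and 137 TPM against 10.2, 8.35 and 11.8 TPM (log2 fold change 3.62, SE 0.55, adjusted p = 0.00073), and Slc35a1, the CMP-sialic acid carrier (log2 fold change 2.13, SE 0.22, adjusted p = 9.1e-05), were at least 4-fold higher in the colorectum. Of 17 sialyltransferases 8 were at least 4-fold higher in the colorectum and 2 in the liver (background 19.1% and 8.95%). St6galnac6 was the most abundant in the colorectum at 484, 457, 666 and 328 TPM (log2 fold change 2.16, SE 0.29, adjusted p = 0.00032), and St3gal1 (log2 fold change -3.16, SE 0.23, adjusted p = 1.4e-05) and the ganglioside GM3 synthase St3gal5 (log2 fold change -4.36, SE 0.28, adjusted p = 7.1e-06) were the liver-sided ones. St6gal1, which sialylates plasma glycoproteins, stood at 23, 29.1 and 30.1 TPM in the liver and 36.2, 35.6, 46.7 and 23.1 TPM in the colorectum, where the groups overlapped. Of 12 sialidase and Siglec genes 1 was at least 4-fold higher in the colorectum and 2 in the liver (background 19.1% and 8.95%). Neu1, the lysosomal sialidase, stood at 99.3, 117, 40.3 and 146 TPM against 13.2, 14.8 and 14.4 TPM (log2 fold change 1.5, SE 0.38, adjusted p = 0.0091).

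By a cut in TPM, more genes were restricted to the bowel than to the liver. TPM is the scale on which most genes lay higher in the colorectum, so the 2 numbers depend on it. A level under the cut is not absence, as Muc2 had 18 counts over the liver libraries. Taking 1 TPM or more in every library of a tissue and under 0.1 TPM in every library of the other, 479 genes were restricted to the colorectum (432 protein coding) and 43 to the liver (17 protein coding), while 10395 genes reached 1 TPM in all 7 libraries. Without colorectum libraries 3 and 4 the numbers were 695 and 102, and without library 4 alone they were 538 and 92. Leaving out a library can only raise these numbers or keep them. Predicted and unnamed genes, such as those with Gm or Rik symbols, were left out when the restricted genes of either tissue were ranked. Of the others, the most abundant in the colorectum were Guca2a, Muc2, Clca1, Retnlb and Muc13. Clca1, a metalloprotease of mucus, stood at 671 to 1452 TPM. On the liver side the most abundant was Pitx3, a homeobox factor known from eye lens and dopamine neurons, at 82.1, 43.2 and 39.4 TPM in the liver and 0 to 0.0283 TPM in the colorectum. The pseudogene Pgam1-ps2, the P450 gene Cyp2c38, the Mup pseudogene Mup-ps12 and Cfhr3, annotated as a pseudogene, followed. Of Alb, the apolipoproteins and the fibrinogens none counted as restricted, since each was above 0.1 TPM in the colorectum.

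At the other end were lists and genes with small differences. Of 31 proteasome subunits 0 were at least 4-fold different; 30 passed as higher in the liver on the TMM scale, yet in TPM the median member was slightly higher in the colorectum (log2 ratio 0.22), so their direction turned with the scaling. Of 17 general housekeeping genes 1, B2m, the light chain of MHC class I, was at least 4-fold different (log2 fold change -2.46, SE 0.21, adjusted p = 3.0e-05). Genes that did not pass and had a log2 fold change within 0.25 of 0 were ranked without predicted and unnamed genes. The most abundant were Atp5b, the iron store Fth1, Rpl10-ps3, the ribosomal Rps25, and Cox4i1 of respiratory complex IV. Rpl10-ps3 is a copy of a ribosomal protein gene, and its level is uncertain if reads are shared with other copies. All 5 had higher TPM in the colorectum: Atp5b averaged 3244 ± 1169.8 TPM (SD, n = 4) there and 1213 ± 7.67 TPM (SD, n = 3) in the liver (log2 fold change -0.21, SE 0.33, adjusted p = 0.6). Cox4i1 passed without colorectum library 3 (0.49, adjusted p = 0.0163), and in the high Neu5Gc libraries Rpl10-ps3 (0.69, adjusted p = 0.00177) and Rps25 (0.65, adjusted p = 0.00102) passed. With library totals the 5 log2 fold changes were 1.06, 1.39, 1.41, 1.46 and 1.51. Gapdh, often taken as a reference gene, stood at 1069.5, 1203, 989 and 1533 TPM in the colorectum and 1074, 1267 and 1211 TPM in the liver, overlapping in TPM, with log2 fold change -1.39, SE 0.24, adjusted p = 0.0014 on the TMM scale.

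The tissue difference recurred in the 9 high Neu5Gc libraries, which share no library with the 7 described. There 3534 genes (19.4% of 18187 tested) were at least 4-fold higher in the colorectum and 2043 (11.2%) in the liver. Of the 3406 colorectum genes at low Neu5Gc 2802 were among them, 82.3% of the low list and 79.3% of the high list, and of the 1598 liver genes 1392 were, 87.1% and 68.1%. The opposite call at 4-fold was made for 7 of the colorectum genes and 0 of the liver genes.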

How the data were processed

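Bulk RNA was sequenced from colorectum and liver of APCMin/+ mice. The authors deposited, in 1 table per tissue, estimated counts (not whole numbers) and TPM for 36118 Ensembl genes; the build is GRCm39 per the submitters' processing notes, and no source used here names the aligner, counting tool, strand or annotation. The TPM that the authors deposited were used for levels, the counts for tests. Symbols came from a GRCm38 table and matched 99.2% of IDs. No column belonged to an unlisted sample. For 29.5% of 9901 genes checked, the factor linking counts to TPM differed between the tissue tables by over 0.1 on the log2 scale (1.48% by over 1.5-fold), so a common factor was tried.

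Counts were rounded and the 4 colorectum and 3 liver libraries fitted alone in edgeR 4.0.16 under R 4.3.3 (TMM, filterByExpr, robust quasi-likelihood test, Benjamini-Hochberg adjustment over all genes tested). Every adjusted p printed is from such a fit. Single values were compared by exact permutation tests. On simulated counts (17481 genes), 8% of 2-fold and 65% of 4-fold changes were called, with 1 false call. Of the 4-fold changes 35% were called and fitted at 4-fold or more. Only a small share of the genes was changed, the others had the same mean in both tissues, and high dispersions were capped. The tissues compared here differ in most genes, so these rates do not carry over to the calls above.

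The libraries, gene lists and pairs were chosen with earlier results of these data known. Named were Alb and Muc2 and the 15 most abundant genes at least 16-fold higher in each tissue. The 5 most abundant with adjusted p above 0.05 and a log2 fold change under 0.25 were also named. Predicted and unnamed genes, such as those with Gm or Rik symbols, were left out of these rankings. Up to 4 abundant members of each list were named, plus those against it. Several list members outside that rule, the restricted genes and the promoters shown were chosen after their values were seen. Alternatives were limma 3.58.1, DESeq2 1.42.0, other scalings, filters and pseudocounts, and fits without libraries. A common gene factor, a fit without the 3 libraries holding other organs' genes, and library-free versions of the restricted and concentration measures were added after seeing the data. Some genes are not reported here, and the pairs that held them were left out.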

Additional observations from a re-analysis of the deposited data

Results flagged for a closer look

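In a group of 4 libraries a value is singled out here when its gap to the nearest other over the group's range exceeds Dixon's critical value for 4 samples; the 3 liver libraries are too few for this. Of 53 gene list sums 15 met this in the colorectum, 12 of them through library 4 and 3 through library 3. Of 163 genes named in the text 46 did, 41 through library 4, 3 through library 3 and 1 each through libraries 1 and 2. For unselected, independent and normally spread values, chance alone flags about 1 in 20 groups. Several of these genes were named after their values were seen, and many share the library that stood apart. The counts therefore cannot be set against that rate and only describe the values. Values below are the TPM of the library that stood apart, and no cause was tested.

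In colorectum library 4 the list sums that stood high were kidney genes at 20099, red cell genes at 7008, gluconeogenesis genes at 2608, amino acid catabolism genes at 1255, plasma carriers at 1160, male liver genes at 997.2, urea cycle genes at 968.6, protease inhibitors at 778.8, prostate and seminal vesicle genes at 405.6 (of which Spink1, a trypsin inhibitor that the pancreas also makes, held 397.8) and coagulation factors at 267.2 TPM. In the same library tuft cell genes, at 74.4 TPM, and fibroblast and matrix genes, at 837.6 TPM, were the lowest. In library 3 mitochondrially encoded genes stood at 237910, acinar genes at 7452 and distal large bowel genes at 127.2 TPM.

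Of single genes in library 4, the kidney genes Kap and Gpx3 stood at 15867 and 6535 TPM. Ass1 stood at 789.8, Alb at 462.6, Cyp2e1 at 406.8, Fbp1 at 355.8 and Apoa2 at 327.5 TPM. The Mup genes stood at 429.4 (Mup22), 412.1 (Mup7), 165.4 (Mup14), 128.6 (Mup3), 88.6 (Mup19) and 88.4 TPM (Mup11). Among apolipoproteins and serpins, Apoc1 stood at 212.7, Apoa1 at 143.4, Serpina1e at 141.5, Serpina1c at 79.8, Serpina3k at 65.7 and Apoa4 at 3.97 TPM. Among other plasma proteins, Ahsg stood at 94.7, Gc at 45.7, Fga at 35.5, Fgb at 18.9, Fgg at 35.6 and F13b at 23.6 TPM. Among enzymes and carriers, Fabp1 stood at 121.2, G6pc at 55.5, Gnmt at 30.6, Slco1a1 at 31.4, Slc2a2 at 25.2, Bhmt at 17.9, Cyp3a11 at 10, Mat1a at 7.64, Cfhr3 at 0.0904 and Cyp2c38 at 0.0796 TPM. Gjb2 stood at 22.9, Notum at 9.25, Cldn1 at 2.40, Clec4f at 1.47 and Clec4g at 0.94 TPM. Muc13 was lowest in that library, at 386.6 TPM.

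In library 3 Insl5 stood at 299.2, Aqp4 at 236.1 and Hoxb13 at 35.6 TPM, in library 2 Adipoq stood at 31.6 TPM, and in library 1 Gata4 stood at 1.48 TPM.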

How the results depend on the processing

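Scaling and the unit of the values moved the split of the calls, and a test against a 2-fold change their total. Of 6033 genes higher in the colorectum and 5162 in the liver, library totals gave 12542 and 1613, limma on log2(TPM + 0.1) 11848 and 1648, on log2(TPM + 1) 11683 and 1648, and without a filter 12731 and 1740. At 4-fold (3406 and 1598) the values were 6023 and 914 with library totals and 5268 and 979 on log2(TPM + 0.1), and the liver count was 752 on log2(TPM + 1) and 751 without a filter. A test against a 2-fold change called 6107 genes (3836 and 2271). With 1 library left out, calls ranged from 9725 to 12120 (5303 to 6536 higher in the colorectum, 4422 to 5584 in the liver) and 4-fold calls from 3229 to 3399 and from 1527 to 1814. Restricted genes, 479 and 43, ranged from 487 to 573 and from 45 to 92; they were 170 and 10 at 5 TPM against under 0.1, 1512 and 145 at 1 against under 0.5, and 695 and 102 without colorectum libraries 3 and 4. Without mitochondrially encoded genes the mean number of genes holding 50% of TPM rose from 209 to 325.5 in the colorectum and from 54 to 67.7 in the liver, the share of the top 100 fell from 39.8 to 32.6% and from 58.1 to 54.8%, and genes at 1 TPM or more were 14930 and 11866.

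Whether same-numbered libraries of the tissues came from 1 mouse cannot be told from these values. The correlations of their deviations from the tissue mean were -0.19, 0.04 and -0.22. Differently numbered libraries were not compared, and single libraries held genes of other organs. With the replicate block 10758 genes were called, and 3435 and 1866 at 4-fold.

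Among named genes, log2 fold changes turned sign mostly near 0. On library totals, log2(TPM + 0.1), log2(TPM + 1) and the last without a filter they became 1.22, 1.21, 0.924 and 0.924 for Lgr5, 0.108, 0.636, 0.633 and 0.633 for Hnf4a, 1.06, 1.34, 1.33 and 1.33 for Atp5b, 0.324, 0.334, 0.325 and 0.325 for St6gal1, and 0.5, 0.526, 0.523 and 0.523 for Xbp1; on the 3 TPM scales Derl3 became 0.332, 0.249 and 0.249; Gapdh turned on the 3 TPM scales, to 0.000435, 0.000447 and 0.000447. Lgr5 was 0.00604 without a count filter, 0.116 with the block, and 0.094, 0.0997 and 0.272 without colorectum library 1 or 4 or liver library 2. Atp5b was 0.088 with a common gene factor and 0.0303 without colorectum library 3. Without colorectum library 3, without 3 and 4, and without liver library 1 as well, Ighm was -0.295, -0.118 and -0.134 (-0.012 with limma-voom) and Pigr -0.145, -0.051 and -0.0253. Pecam1 was -0.00598 with the block, -0.00798 without colorectum libraries 3 and 4 and -0.0181 without liver library 3. Fth1 was -0.21 with the block, -0.153 without colorectum library 4 and -0.411 in the high Neu5Gc libraries, where Apc was -0.218, Rgs5 -0.184 and Aqp8 1.55. In those libraries 10 distal large bowel genes, 8 immunoglobulin constant, 10 B and plasma cell and 4 MHC class II genes were at least 4-fold higher in the colorectum, in place of 6, 5, 5 and 0. With 1 library left out, the ranges were -0.145 to 0.243 for Pigr, -0.292 to 0.272 for Lgr5, -0.43 to 0.0303 for Atp5b, -0.0181 to 0.0934 for Pecam1, -0.295 to 0.432 for Ighm and -0.153 to 0.365 for Fth1. The cause of these was not tested.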

Other observations

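Fat cell genes were unevenly spread over the colorectum libraries. Of 12 adipocyte genes 5 were at least 4-fold higher in the colorectum (background 19.1%) and 1, the carbonic anhydrase Car3 that hepatocytes also make, at least 4-fold higher in the liver. Adipoq, the fat cell hormone adiponectin, stood at 5.78, 31.6, 3.17 and 5.95 TPM in colorectum libraries 1 to 4 and at 0.443, 0.515 and 0 TPM in the liver (log2 fold change 3.85 ± 1.24 SE, edgeR adjusted p = 0.0298), a call lost without liver library 1 or 2 (adjusted p up to 0.0775). The high one was library 2, which was also the high one for Cfd (187 TPM). Pparg, a nuclear receptor of fat cells and of colonocytes, was even, at 65.1, 69.6, 49.5 and 51.2 TPM in the colorectum and 2.96, 3.27 and 3.18 TPM in the liver (2.89 ± 0.14 SE, adjusted p = 2.02e-06).

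Of 16 liver genes whose level differs between male and female mice, 14 were at least 4-fold higher in the liver (background 8.95%). Elovl3, a fatty acid elongase, stood at 635, 451.4 and 532.5 TPM in the liver and at 0.515, 0.0182, 0.146 and 0.81 TPM in the colorectum (-11.89 ± 1.31 SE, adjusted p = 0.000195). Slco1a1, an organic anion carrier also found in kidney, did not pass, at 163.7, 156.2 and 185.7 TPM in the liver and at 0.115, 0.0985, 0.111 and 31.4 TPM in the colorectum (-5.61 ± 2.45 SE, adjusted p = 0.0893). Its high colorectum value was library 4, the one with kidney genes; without that library it passed (-11.8, adjusted p = 1.45e-07).

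Skeletal muscle genes were low in both tissues, with 1 of 16 at least 4-fold higher in the colorectum and 2 in the liver (background 19.1% and 8.95%). Neb, nebulin of striated muscle, was one of the latter, at 10.98, 13.3 and 9.75 TPM in the liver and 0.972, 1.16, 1.33 and 0.932 TPM in the colorectum (-5.44 ± 0.21 SE, adjusted p = 1.06e-06; -4.69 with a common gene factor).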
